A study of Mus musculus with 32 samples.

Results

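The 37 genes of the mouse mitochondrial (mt) genome were followed in tibialis anterior (TA) muscle of *Mtm1* knockout (KO) mice and wild-type (WT) littermates. They were taken from the deposited count table as every gene whose symbol begins with mt-, which gave 37 of 54838 genes, namely 13 mRNAs, 2 rRNAs and 22 tRNAs. *Mtm1* encodes myotubularin, a phosphoinositide phosphatase, and its loss models X-linked myotubular myopathy. The KO allele is a germline deletion in exon 4, so it is present in every cell and not only in muscle fibres, and WT mice carried no engineered allele. Both genotypes had the C57BL6/J background per the labels, after transfer of a line first made on 129S2PAS. Each genotype had *n*=4 libraries at each of postnatal days 1, 14, 21 and 35 (P1, P14, P21 and P35), 32 libraries in all, and no treatment was given to these groups. The libraries were made from poly(A)-selected RNA, so the values below refer to polyadenylated transcripts.

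The mt genome is a small circle present in many copies per cell. Its heavy and light strands are transcribed by a dedicated polymerase into long precursors in which tRNAs lie between most of the mRNAs and rRNAs, and excision of the tRNAs releases the other RNAs. The mRNAs encode core subunits of the respiratory chain, *mt-Nd1* to *mt-Nd6* and *mt-Nd4l* for complex I, *mt-Cytb* for complex III, *mt-Co1* to *mt-Co3* for complex IV, and *mt-Atp6* and *mt-Atp8* for the ATP synthase (complex V). *mt-Rnr1* and *mt-Rnr2* are the rRNAs of the small and the large mitochondrial ribosomal subunit. In GRCm38 the rRNAs lie at chrM:70-1024 and chrM:1094-2675, and the mRNAs follow from *mt-Nd1* (chrM:2751-3707) to *mt-Cytb* (chrM:14145-15288), all as genes without introns. *mt-Nd2* lies at chrM:3914-4951, *mt-Co1* at chrM:5328-6872, *mt-Co2* at chrM:7013-7696, *mt-Atp8* at chrM:7766-7969, *mt-Atp6* at chrM:7927-8607, *mt-Co3* at chrM:8607-9390, *mt-Nd3* at chrM:9459-9806, *mt-Nd4l* at chrM:9877-10173, *mt-Nd4* at chrM:10167-11544 and *mt-Nd5* at chrM:11742-13565 on the plus strand, and *mt-Nd6* at chrM:13552-14070 on the minus strand. All proteins that copy, transcribe and process this genome, and the remaining respiratory subunits, are encoded in the nucleus.

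Library totals ran from 49321035 to 85631408 counts. *Mtm1* itself was measured at 17.6 to 21.3 CPM (counts scaled to a common library size by TMM) in WT and 2.88 to 3.45 CPM in KO at P35, and was lower in KO at P14, P21 and P35 (log2 fold change -2.34, -2.71 and -2.56). At P1 the *Mtm1* difference was -0.98 with adjusted *P* = 0.067, and no KO library reached a WT library at any age. The 8 skeletal muscle fibre markers were detected in every group. One library, KO replicate 4 at P1, stood apart in its mt content, and the difference in share at P1 is given with and without it.

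No count was placed on any of the 22 mt tRNA genes, which were listed at 0 in all 32 libraries. These genes are 59 to 75 bases long. The longest and the shortest, a leucine and a serine tRNA on the heavy strand, are shown to give their size (GRCm38, whole genes, in lower case).
mt-Tl1, chrM:2676-2750, plus strand: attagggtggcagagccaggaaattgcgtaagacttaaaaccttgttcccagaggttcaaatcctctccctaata
mt-Ts2, chrM:11613-11671, plus strand: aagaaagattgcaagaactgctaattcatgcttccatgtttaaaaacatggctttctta
The other 2371 genes of the table whose longest transcript is under 100 bases were also listed at 0 throughout, against 61.9% of longer genes with a count in at least 1 library. The zeros of the mt tRNAs were thus shared by every gene of that size and are no measure of tRNA abundance, and no fold change or detection limit was set for them. The 15 mRNAs and rRNAs all had counts in every library, from 3298 counts for the lowest value of *mt-Nd6* upwards.

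The nuclear genome holds near-identical copies of several mt genes, and these divided the counts. Of 11 annotated copies with at least 95% identity over at least 100 bases, 7 lie in a row on the minus strand of chr1:24611535-24616197 (GRCm38), as unprocessed pseudogenes in the gene order of the mt genome. *Gm28661* is identical to *mt-Co2* over 681 bases, *Gm10925* to *mt-Atp6* over 678, *Gm28437* to *mt-Co3* over 783, *Gm10222* to *mt-Nd4l* over 294 and *Gm28439* to *mt-Nd4* over 876. The remaining pair of that row differ from their mt genes by 1 base each within the match. The match spans 483 of the 492 bases of *Gm29216* and all 345 bases of *Gm28438*. The differences are A1066T for *Gm29216* against *mt-Co1* and T3C for *Gm28438* against *mt-Nd3*. Positions are counted from 1 at the start of the mt gene, and the mt base is given first. The windows below show how little of the sequence separates a gene from its copy, with the differing base in capitals.
mt-Co1, chrM:6390-6423, plus strand: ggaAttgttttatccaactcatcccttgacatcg
Gm29216, chr1:24616155-24616188, minus strand: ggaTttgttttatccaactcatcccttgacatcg
mt-Nd3, chrM:9459-9491, plus strand: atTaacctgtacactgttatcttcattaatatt
Gm28438, chr1:24613087-24613119, minus strand: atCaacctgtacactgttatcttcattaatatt
Reads that lie wholly within bases identical in a gene and its copy cannot be assigned to one place by sequence. The counts of such pairs are uncertain as to which member they came from.

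The copies received a large part of the counts. The median over the 32 libraries was 631990.1 counts for *Gm28437*, 454303 for *Gm10925* and 399762 for *Gm28661*. *mt-Co3* held only 4.10 to 29.98% of the counts of its pair, *mt-Atp6* 8.76 to 17.8%, *mt-Nd3* 23.3 to 44.6% and *mt-Nd4l* 35.7 to 58.9%, whereas *mt-Co1* held 91.8 to 97.6%. The pairs are not alike in extent. *Gm29216* matches only 483 of the 1545 bases of *mt-Co1*, whereas *Gm28437* matches 783 of the 784 bases of *mt-Co3*. *Gm28439* had at most 54.9 counts although it matches *mt-Nd4* exactly. The division was uneven between libraries for *mt-Co2*. Its part of the pair at P35 was 52.8, 91.4, 52.8 and 97.6% in WT and 99.999, 91.5, 99.97 and 99.95% in KO, and at P21 it was 31.5, 35.7, 33.3 and 29.2% in WT and 31.9, 28.9, 28.5 and 30.1% in KO. Within WT at P35, *mt-Co2* thus held nearly all counts of the pair in 2 libraries and close to an equal part in the other two. The fold changes below are therefore given for the counts as deposited and for the counts of each copy added to its mt gene ("copies added", a choice made after the data were seen). The remaining 4 copies, on chromosomes 2 and 13, had at most 51.0 counts in a library.

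**Figure D1:**
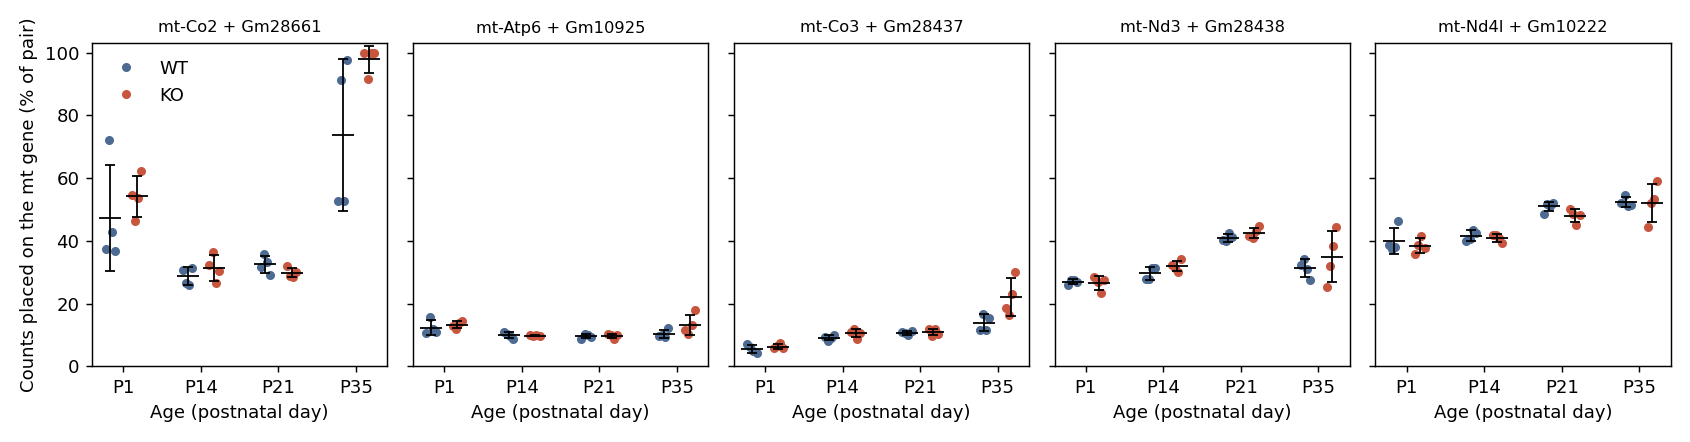
Counts placed on the mt gene as a percentage of the counts of the mt gene and its nuclear copy (y axis) at 4 ages (x axis), with 1 point per library and bars for mean ± SD, *n*=4. For mt-Co2 the points lie at 29.2 to 35.7% in WT at P21 and spread from 52.8 to 97.6% at P35.

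The mt mRNAs took a growing part of the WT libraries with age, and a smaller part of the KO libraries than of the WT libraries at P21 and P35. Their share of all counts at P1 was 3.56, 3.81, 3.47 and 2.84% in WT and 3.16, 3.02, 3.02 and 4.83% in KO. At P14 it was 7.65, 7.88, 8.41 and 8.99% in WT and 6.89, 7.89, 7.74 and 8.95% in KO. The genotypes overlapped at both ages, and KO replicate 4 was the highest library at P1. At P21 the share was 10.5, 10.4, 11.7 and 9.52% in WT and 8.49, 7.92, 7.93 and 8.15% in KO, and at P35 it was 11.9, 15.7, 17.4 and 15.7% in WT and 10.02, 10.03, 10.2 and 10.2% in KO. At both of these later ages the 4 KO libraries all lay under the lowest WT library. In whole muscle, fewer fibres and less mt RNA per fibre cannot be told apart. The WT mean rose from 3.42% ± 0.414 (SD, *n*=4) at P1 to 8.23% ± 0.596, 10.5% ± 0.897 and 15.2% ± 2.33 at P14, P21 and P35, and the KO means were 3.51% ± 0.885, 7.87% ± 0.843, 8.12% ± 0.269 and 10.1% ± 0.125. With the nuclear copies included, mt mRNA sequence made up 16.2 to 23.4% of WT and 12.6 to 12.8% of KO libraries at P35. The WT libraries varied far more than the KO libraries at this age, with WT replicate 1 the lowest of WT and replicate 3 the highest.

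The rRNA share followed another course. It was 0.158 to 0.209% in WT and 0.185 to 0.366% in KO at P1, 0.189 to 0.327% and 0.175 to 0.322% at P14, and 0.217 to 0.280% and 0.259 to 0.307% at P21, with overlap of the genotypes at each of these ages. At P35 it was 0.484, 0.468, 0.491 and 0.515% in WT and 0.322, 0.265, 0.269 and 0.290% in KO. The KO libraries at P35 thus lay near the level of P21, and all 4 WT libraries lay above every other library of the series.

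**Figure D2:**
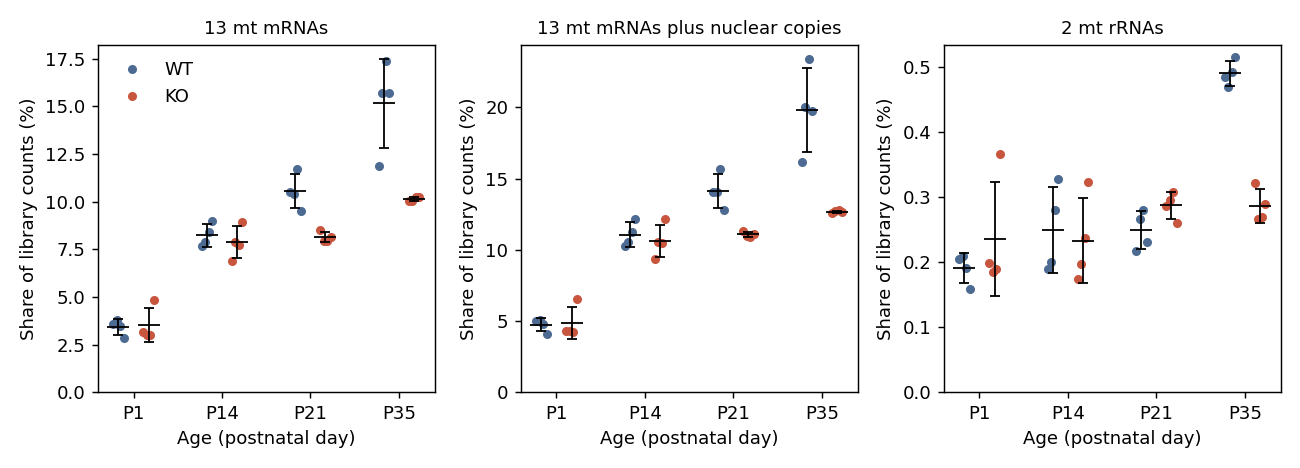
Share of all library counts (y axis, %) held by the 13 mt mRNAs, by the same with nuclear copies added, and by the 2 mt rRNAs, at 4 ages (x axis), with 1 point per library and bars for mean ± SD, *n*=4. At P35 the WT points of the mt mRNAs sit at 11.9 to 17.4% and the KO points at 10.02 to 10.2%.

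A share of the library falls or rises with every other gene, so KO was also compared with WT after TMM (trimmed mean of M values) scaling, which sets library sizes by the bulk of genes. Differentially expressed genes (DEGs) were those that changed by more than 1.5-fold at an adjusted *P* under 0.01 in edgeR's quasi-likelihood test. At P1 none of the 13 mRNAs and neither rRNA was a DEG, where 0% of 18100 genes were DEGs lower in KO, and at P14 again none was, where 0.00636% of 15728 genes were. The mRNA log2 fold changes ran from -0.17 to 0.19 at P1 and from -0.32 to 0.10 at P14, none had an unadjusted *P* under 0.05 in the fit without a replicate block, and no transcript separated the genotypes. DESeq2 also called 0 of the 13 at either age. The P1 values were from -0.14 to 0.08 with copies added. Without KO replicate 4 the difference in mean mt mRNA share at P1 was -0.351 percentage points (KO minus WT), against 0.0901 points with it, and that in rRNA share was 0.00034 points without it against 0.0441 points with it. At P14 replicate numbers were taken to pair the libraries, which was inferred from these data. A fit with the number as a block raised the DEGs of the whole table from 5 to 98 but still called no mt transcript. In that fit 3423 of 15728 genes had an unadjusted *P* under 0.05, in either direction. Among them were 4 mt mRNAs and both mt rRNAs, all lower in KO. The smallest adjusted *P* was that of *mt-Nd4l* (-0.33 ± 0.06 SE, adjusted *P* = 0.013), and the other mRNAs were *mt-Nd5* at -0.28, *mt-Atp8* at -0.22 and *mt-Nd6* at -0.16, with adjusted *P* from 0.088 to 0.136. *mt-Rnr1* was at -0.23 (adjusted *P* = 0.083) and *mt-Rnr2* at -0.17 (adjusted *P* = 0.138).

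At P21 all 13 mt mRNAs were lower in KO at adjusted *P* under 0.05, where 9.57% of genes were, and neither rRNA was. In CPM scaled by TMM each of the 13 had its 4 KO libraries below its 4 WT libraries, a separation that 10.8% of 15179 genes showed in that direction. The log2 fold changes ran from -0.85 to -0.37 with a median of -0.53, beside 0.01 for all genes tested. The DEG thresholds were passed by 3 of them, all complex I subunits, where 1.5% of genes were DEGs lower in KO. *mt-Nd4l* was at 943, 804, 958 and 813 CPM across WT replicates and 597, 449, 424 and 489 CPM across KO replicates (log2 fold change -0.85 ± 0.12 SE, adjusted *P* = 0.0017). *mt-Nd5* was at 10805, 8893, 10962 and 9533 CPM across WT replicates and 7452, 4968, 5162 and 5359 CPM across KO replicates (log2 fold change -0.81 ± 0.15 SE, adjusted *P* = 0.0053). KO replicate 1 was closest to WT for both. *mt-Nd2* was at 9344, 8539, 9039.7 and 8108 CPM across WT replicates and 5868, 5383, 5142 and 5678 CPM across KO replicates (log2 fold change -0.67 ± 0.09 SE, adjusted *P* = 0.0016). With copies added the same 3 were DEGs, the 13 values ran from -0.81 to -0.40 with a median of -0.51, and the values that moved most were *mt-Co2* (-0.40), *mt-Nd4l* (-0.77) and *mt-Nd3* (-0.42).

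With library totals, where 3.85% of all genes were lower in KO at adjusted *P* under 0.05, 12 of the 13 mRNAs still were, and the median of the 13 was -0.34 with the deposited counts. The exception was *mt-Nd3* with the deposited counts (-0.18, adjusted *P* = 0.088) and *mt-Co2* with copies added (-0.21, adjusted *P* = 0.098). As a share of the library, 11 of 13 had all 4 KO libraries below all 4 WT libraries, and 10 with copies added. The 10.8% of genes given above refers to CPM scaled by TMM, and no such figure over all genes is given for library shares.

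Most of the other mRNAs at P21 had a small adjusted *P* and missed the fold threshold. *mt-Nd4* and *mt-Atp8* lay just short of it at -0.58 ± 0.09 and -0.58 ± 0.09 (SE), *mt-Cytb* was at -0.57 ± 0.10 and *mt-Co1* at -0.51 ± 0.11. *mt-Co2*, *mt-Co3*, *mt-Atp6*, *mt-Nd1*, *mt-Nd6* and *mt-Nd3* ranged from -0.53 to -0.37. The count of DEGs at this age moved with single libraries, from 3 to 5 of 13 without KO replicate 1 and to 7 without WT replicate 4. *mt-Nd5* lost its call without WT replicate 1, 2 or 3 or KO replicate 2, 3 or 4, and *mt-Nd2* with library totals. *mt-Rnr1* was 654, 806, 754 and 678 CPM across WT replicates and 811, 818, 885 and 742 CPM across KO replicates, and its difference of 0.17 ± 0.09 was not significant (adjusted *P* = 0.205). *mt-Rnr2* differed by -0.04 ± 0.09 (adjusted *P* = 0.79). Without scaling beyond the library total, the same rRNA differences were 0.36 and 0.15, while the median of all genes moved to 0.20. On that scale *mt-Rnr1* was higher in KO with adjusted *P* = 0.022 in edgeR. At adjusted *P* under 0.05, 4734 of 15179 genes were higher in KO. As a share of the library the KO libraries of *mt-Rnr1* all lay above its WT libraries. *mt-Rnr2* had adjusted *P* = 0.27 and its genotypes overlapped. Per 100 mRNA counts (copies added) there were 1.54, 1.90, 1.79 and 1.81 in WT and 2.53, 2.69, 2.81 and 2.33 in KO rRNA counts at P21, and the KO values were all above the WT values.

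At P35 mt transcripts of all complexes were lower in KO, at 33.7% (*mt-Nd5*) to 58.1% (*mt-Co2*) of the WT level with copies added, and so were both rRNAs. As deposited, 9 of 13 mRNAs and both rRNAs were DEGs lower in KO, where 7.52% of 15595 genes were. With copies added all 13 mRNAs and both rRNAs were DEGs (7.53% of genes), with log2 fold changes from -1.57 to -0.78 and a median of -1.05 for the mRNAs, beside 0.04 for all genes tested. In CPM with copies added each of the 15 had its KO libraries below its WT libraries (10 of 13 mRNAs and both rRNAs as deposited), which 18.9% of genes did as deposited. Library totals in place of TMM moved the median of all genes to 0.44 and that of the 13 mRNAs to -0.65, and left 10 of 13 mRNAs and both rRNAs as DEGs with copies added, where 2.07% of genes were (8 and 2 as deposited).

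**Figure D3:**
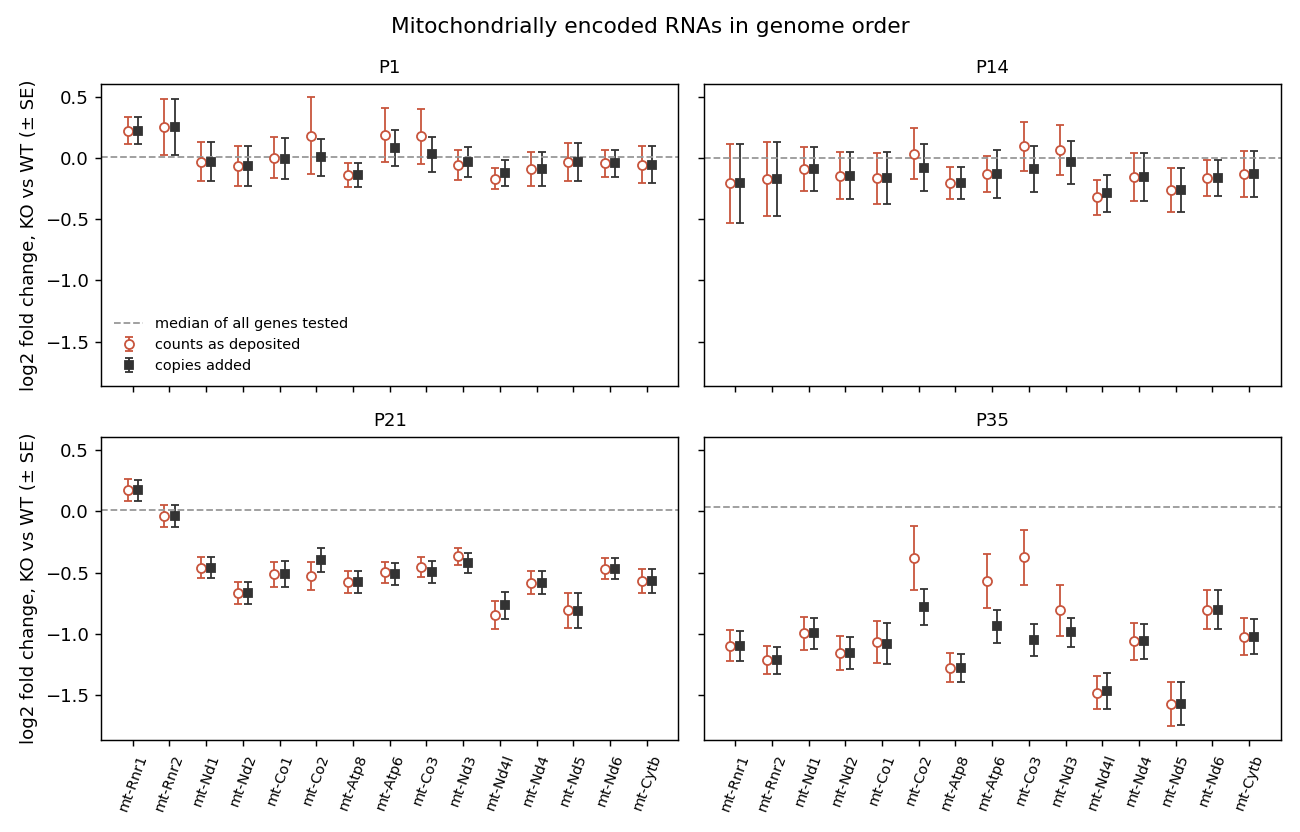
log2 fold change of KO against WT (y axis, ± SE) for the 15 mt RNAs with counts, in genome order (x axis), at each age, for counts as deposited (open circles) and with copies added (squares), *n*=4 per genotype. At P35 all squares lie at -0.78 or lower, and the open circles of mt-Co2, mt-Atp6 and mt-Co3 lie nearer to 0 than their squares.

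The complex I transcripts spanned the widest range at P35. *mt-Nd5* was at 10907, 12954, 15755 and 13432 CPM across WT replicates and 4528, 5604, 4093 and 3633 CPM across KO replicates (log2 fold change -1.57 ± 0.18 SE, adjusted *P* = 2.48e-04), which is 33.7% of the WT level. *mt-Nd4l*, whose last 7 bases are also the first bases of *mt-Nd4*, was at 1051, 1206, 1507 and 1216 CPM across WT replicates and 383, 517, 467 and 419 CPM across KO replicates (log2 fold change -1.48 ± 0.14 SE, adjusted *P* = 1.18e-04). For both genes the highest KO library was KO replicate 2, and it was well under the lowest WT library, WT replicate 1. The last 60 bases of *mt-Nd4l* show the shared bases in capitals.
mt-Nd4l, chrM:10114-10173, plus strand: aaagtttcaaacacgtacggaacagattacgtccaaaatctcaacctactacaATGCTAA
 *mt-Nd2*, *mt-Nd4* and *mt-Nd1* fell to 44.9%, 47.9% and 50.2% of WT (log2 fold changes -1.16 ± 0.14, -1.06 ± 0.15 and -0.99 ± 0.14 SE). The 4 KO libraries were very alike for *mt-Nd2*, at 5854 to 5934 CPM, against 10626 to 14755 CPM in WT. *mt-Nd3* was at 932, 1262, 1157 and 976 CPM across WT replicates and 420.1, 512, 678 and 860.1 CPM across KO replicates as deposited and missed the threshold (log2 fold change -0.81 ± 0.21 SE, adjusted *P* = 0.013). With *Gm28438* added it was at 2878, 3678, 3713 and 3544 CPM across WT replicates and 1661, 1599, 1769.8 and 1943 CPM across KO replicates (log2 fold change -0.99 ± 0.12 SE, adjusted *P* = 3.08e-04), and the genotypes stood clear of each other.

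*mt-Nd6* is the only mRNA on the light strand and had the lowest level of the 13. It was at 229, 329, 363 and 244 CPM across WT replicates and 182, 138, 168 and 179 CPM across KO replicates at P35 (log2 fold change -0.80 ± 0.16 SE, adjusted *P* = 0.0035). The call was lost with library totals, with the replicate number as a block, and without WT replicate 2 or KO replicate 3. Its last 14 bases overlap those of *mt-Nd5* on the other strand. The strand setting of the counting is not given in the sources used here. Reads of the other strand, over these bases or elsewhere in the gene, may therefore be among the counts of *mt-Nd6*. *mt-Cytb*, the only mt-encoded subunit of complex III, was at 20486, 25902, 28839.6 and 26127 CPM across WT replicates and 12722, 11875, 12633 and 12656 CPM across KO replicates (log2 fold change -1.02 ± 0.15 SE, adjusted *P* = 8.60e-04). Its 4 KO libraries lay within a narrow band below the lowest WT library.

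Among the complex IV transcripts, which include the most abundant of all mt mRNAs, the choice of counts mattered most. *mt-Co1*, the catalytic subunit, was at 46144, 54531, 66899 and 56336 CPM across WT replicates and 27570.0, 25983, 26093 and 27437 CPM across KO replicates (log2 fold change -1.06 ± 0.17 SE, adjusted *P* = 0.0013), and adding *Gm29216* changed the value little (-1.08 ± 0.16). *mt-Co2* as deposited was at 10472, 21966, 14044 and 23809.9 CPM across WT replicates and 13893, 10928, 14294 and 15008 CPM across KO replicates, with log2 fold change -0.38 ± 0.26 SE, adjusted *P* = 0.272. WT replicates 1 and 3, the 2 libraries in which *Gm28661* held close to an equal part of the pair, lay below and within the range of KO. With *Gm28661* added, the values became 19849, 24029.8, 26591 and 24396 CPM across WT replicates and 13893, 11948, 14299 and 15015 CPM across KO replicates (log2 fold change -0.78 ± 0.15 SE, adjusted *P* = 0.0026). *mt-Co3* was at 2559.5, 4302, 3347 and 3917 CPM across WT replicates and 2332, 1957, 2825 and 3779 CPM across KO replicates as deposited, with WT replicates 1, 3 and 4 reaching into or close to the range of KO, and at 22148 to 28981 and 11918 to 12627 CPM with *Gm28437* added. Its log2 fold change moved from -0.37 ± 0.23 (adjusted *P* = 0.21) to -1.05 ± 0.13 (adjusted *P* = 3.97e-04). With library totals the deposited counts of *mt-Co2* and *mt-Co3* gave 0.02 and 0.02, so their direction turned, whereas with copies added they stayed negative at -0.38 and -0.65.

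The pair of ATP synthase mRNAs overlap in the genome and also showed the effect of the copies. *mt-Atp8* ends inside *mt-Atp6*. The last 60 bases of *mt-Atp8* are given with the 43 shared bases in capitals, since reads over them belong to both genes.
mt-Atp8, chrM:7910-7969, plus strand: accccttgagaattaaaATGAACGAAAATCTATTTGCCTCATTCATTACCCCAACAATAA
*mt-Atp8* was at 1029.9, 1251, 1413 and 1357 CPM across WT replicates and 475, 537, 561 and 514 CPM across KO replicates (log2 fold change -1.28 ± 0.12 SE, adjusted *P* = 1.12e-04). *mt-Atp6* was at 1558, 2019, 1968 and 2544 CPM across WT replicates and 1198, 956, 1372 and 1929.6 CPM across KO replicates as deposited, with overlap and no call (log2 fold change -0.57 ± 0.22 SE, adjusted *P* = 0.065). With *Gm10925* added it rose to 16258 to 21361 CPM in WT and 9181 to 10849 CPM in KO and was a DEG (log2 fold change -0.94 ± 0.14 SE, adjusted *P* = 7.79e-04).

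Both rRNAs were clearly lower in KO at P35. *mt-Rnr1* was at 1859.6, 1728, 1810.2 and 1896 CPM across WT replicates and 966, 678, 821 and 948 CPM across KO replicates (log2 fold change -1.10 ± 0.13 SE, adjusted *P* = 2.48e-04). *mt-Rnr2* was at 3799, 3605, 3692 and 4151 CPM across WT replicates and 1885, 1528, 1500.1 and 1661 CPM across KO replicates (log2 fold change -1.21 ± 0.12 SE, adjusted *P* = 1.27e-04). The WT libraries were close to each other and none came near KO. Both calls held in each alternative run. The rRNA counts per 100 mRNA counts (copies added) were 2.99, 2.34, 2.10 and 2.61 in WT and 2.55, 2.09, 2.11 and 2.29 in KO, and the genotypes overlapped. Among the rRNAs, *mt-Rnr2* counts per *mt-Rnr1* count were 4.17 to 5.49 in WT at P1 and 2.04 to 2.19 at P35. That ratio set the genotypes apart at P21, at 2.52 to 2.76 in WT and 2.19 to 2.44 in KO, and overlapped at P35 (1.75 to 2.25 in KO). No nuclear copy of either rRNA met the criteria for copies.

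Markers of other cells moved at the same ages. Of all genes tested, 482 of 15179 at P21 and 1324 of 15595 at P35 were DEGs higher in KO. Those lower in KO were 227 at P21 and 1172 at P35. The summed level of 6 macrophage markers was 47.4 to 66.4 CPM in WT and 81.6 to 106 CPM in KO at P21 (3 of 6 were DEGs higher in KO), and 62.1 to 74.5 and 96.1 to 151 CPM at P35 (4 of 6). At P21 endothelial markers were lower in every KO library (423 to 667 CPM in WT and 336 to 407 CPM in KO, 0 of 5 DEGs), and keratinocyte markers were higher (5.71 to 8.26 and 24.4 to 30.2 CPM, 1 of the 2 tested being a DEG). The summed fibre, fibroblast, erythroid and adipocyte markers overlapped at P21. Adipocyte markers were at 4.46 to 21.8 CPM in WT and 35.7 to 147 CPM in KO at P35 (4 of 5 higher), and keratinocyte markers at 7.9999 to 8.66 and 21.7 to 26.4 CPM (3 of the 6 were expressed enough to be tested and 1 was higher). Fibroblast markers overlapped at 2720.2 to 3391 and 2839 to 4399.7 CPM with 0 of 6 DEGs, as did erythroid markers at 161 to 499 and 193 to 375 CPM with 0 of 5. Endothelial markers were at 249 to 472 and 227 to 287 CPM with 1 of 5 lower. The 8 fibre markers summed to 90627 to 152159 CPM in WT and 61813 to 92577 CPM in KO, 1 of 8 being a DEG lower in KO. No marker of these lists was at 0 throughout a group at P35. The part of these cells in the mt differences was not tested.

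The growth of the KO effect with age was tested as the difference of the effect between ages in 1 edgeR fit of all 32 libraries. From P14 to P35 the effect became more negative for 8 of 13 mRNAs at adjusted *P* under 0.01 (11 of 13 with copies added), where 4.76% of 18583 genes did. The largest differences were -1.34 ± 0.25 SE for *mt-Nd5* (adjusted *P* = 4.31e-04), -1.18 ± 0.19 for *mt-Nd4l* (adjusted *P* = 8.88e-05) and -1.10 ± 0.16 for *mt-Atp8* (adjusted *P* = 3.87e-05). Library totals reduced the 8 to 4, where 225 of 18583 genes had a lower effect at P35. Over the single steps from P1 to P14, from P14 to P21 and from P21 to P35, 0 of 13 mRNAs passed in edgeR. At an unadjusted *P* under 0.05 there were 0, 6 and 8 of them. Of 18583 genes, 1200, 2398 and 3241 had such a *P* at these steps, in either direction. For the last of these steps 0.312% of genes had a lower effect at P35 at adjusted *P* under 0.01. Among mt RNAs the rRNAs had the most negative change of the effect between P21 and P35, -1.28 ± 0.29 for *mt-Rnr1* and -1.19 ± 0.31 for *mt-Rnr2*, with adjusted *P* = 0.018 and 0.040 and therefore short of the threshold.

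Between ages, all mt mRNAs rose from P1 to P14 in both genotypes, and at each later step some rose further in WT. From P1 to P14 all 13 mRNAs rose in WT and in KO, where 24.2% and 24.5% of 18583 genes rose. With copies added, the WT rises ran from 1.03 for *mt-Atp8* to 2.57 for *mt-Nd6* (log2), and the KO rises from 0.98 for *mt-Atp8* to 2.49 for *mt-Nd4*. *mt-Rnr1* rose by 1.88 ± 0.21 SE in WT and 1.47 ± 0.21 in KO. *mt-Rnr2* rose by 1.00 ± 0.22 in WT and was not a DEG in KO (0.59 ± 0.22, adjusted *P* = 0.017). With library totals the median of all genes at this step was -0.87 in WT and -0.81 in KO. Under that scaling 11 and 10 of the 13 mRNAs still rose as deposited, where 1659 and 1759 of 18583 genes rose. *mt-Rnr2* was then at 0.19 in WT and -0.20 in KO. Marker CPM were scaled by TMM within each age, whereas the TMM rises above come from a fit of all 32 libraries. Marker levels at P1 and P14 are thus not on the scale of those rises. The 6 keratinocyte markers summed to 2858 to 9179.5 CPM in WT at P1 and 8.74 to 13.1 CPM at P14, and the 8 fibre markers to 42516 to 55279 and 123855 to 167473 CPM. Fibroblast markers went from 18313 to 24595 to 3692 to 7247 CPM in WT, macrophage markers from 175 to 253 to 61.7 to 65.4, erythroid markers from 1161 to 2745 to 401 to 685 and adipocyte markers from 104 to 376 to 2.27 to 20.7, each without overlap of the ages, whereas endothelial markers overlapped at 583 to 638 and 558 to 679 CPM. Their part in the rise of mt RNA was not tested.

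From P14 to P21, 5 of 13 mRNAs rose in WT, where 3.04% of genes rose, and 0 of 13 in KO, where 4.06% did. In KO (edgeR) 2 of 13 had an unadjusted *P* under 0.05, in opposite directions, where 7171 of 18583 genes had one in either direction. *mt-Atp8* was at 0.52 ± 0.11 SE (adjusted *P* = 0.0013), short of the fold threshold, and *mt-Nd6* at -0.34 ± 0.14 (adjusted *P* = 0.072). The WT genes were *mt-Atp8* (0.91), *mt-Nd2* (0.82), *mt-Nd4l* (0.74), *mt-Nd3* (0.72) and *mt-Cytb* (0.59). *mt-Nd3* and *mt-Nd4l* lost the call with copies added (0.27 and 0.46). From P21 to P35, 5 mRNAs rose in WT, where 2.23% of genes rose, and with copies added these were *mt-Nd3* (1.14), *mt-Nd1* (0.72), *mt-Atp6* (0.72), *mt-Co3* (0.67) and *mt-Co2* (0.64). In WT *mt-Rnr1* rose by 1.30 ± 0.21 SE (adjusted *P* = 1.21e-04) and *mt-Rnr2* by 0.95 ± 0.22 (adjusted *P* = 0.0035), against 0.02 ± 0.20 and -0.23 ± 0.22 in KO.

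In KO from P21 to P35, the deposited counts gave rises for *mt-Co2* (1.96), *mt-Co3* (1.12) and *mt-Atp6* (0.74), where 3.24% of genes rose. With copies added none of the 3 passed (0.25, 0.10 and 0.28), and the only DEG left among the mRNAs under TMM was *mt-Atp8*, which fell by 0.60 on the log2 scale (adjusted *P* = 3.62e-04), where 3.1% of genes fell. With library totals, which moved the median of all genes to 0.18, *mt-Atp8* was at -0.45 and not a DEG. *mt-Nd3* with copies added was at 0.56 under TMM (adjusted *P* = 0.0026), short of the fold threshold, and with library totals it was a DEG that rose (0.71, adjusted *P* = 4.02e-05), where 6.28% of genes rose. The differences between the WT and the KO step are the tests of the KO effect between ages given above.

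The mRNAs did not fall by equal amounts at P35, which can be read within libraries, free of scaling between them. With copies added, each mRNA's share of all mt mRNA counts was computed for each library and was not tested. Of 13 shares, 4 were lower in every KO library than in every WT library at P35, 1 was higher, and 8 overlapped. *mt-Nd5* made up 5.77, 5.69, 6.004 and 5.80% in WT and 4.06, 5.30, 3.72 and 3.20% in KO. *mt-Nd4l* made up 1.07, 0.971, 1.12 and 1.02% in WT and 0.774, 0.940, 0.793 and 0.626% in KO. KO replicate 2 was the closest to WT for both. *mt-Nd2* was at 5.62 to 5.99% in WT and 5.22 to 5.54% in KO, and *mt-Atp8* at 0.538 to 0.586% and 0.425 to 0.509%. *mt-Co2* went the other way, at 10.5, 10.6, 10.1 and 10.5% in WT and 12.4, 11.3, 12.98 and 13.2% in KO. At P21 only *mt-Nd2* separated the genotypes, and *mt-Nd5* was at 6.83, 5.95, 6.91 and 6.96% in WT and 6.99, 4.74, 5.14 and 5.16% in KO, with KO replicate 1 in the range of WT and the other 3 KO libraries below it. As a ratio of genes whose counts the copies on chromosome 1 did not share, *mt-Nd5* per *mt-Cytb* was 0.500 to 0.546 in WT and 0.287 to 0.472 in KO at P35. The ratio of *mt-Nd6* to the heavy-strand mRNAs overlapped between genotypes.

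**Figure D4:**
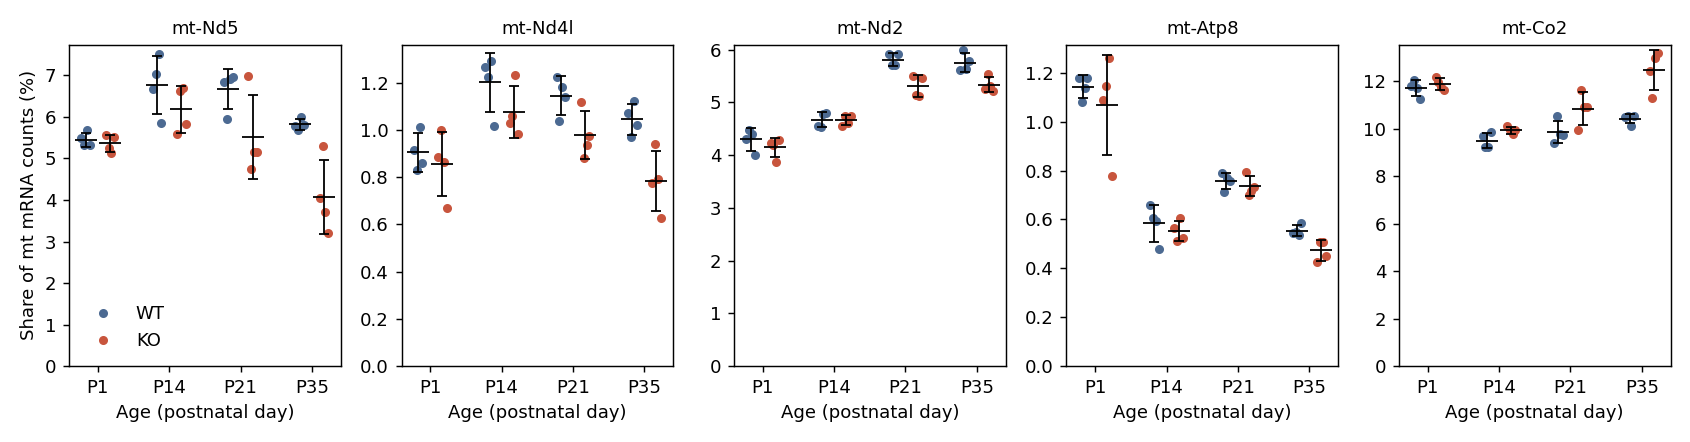
Share of all mt mRNA counts, copies added (y axis, %), held by 5 mRNAs at 4 ages (x axis), with 1 point per library and bars for mean ± SD, *n*=4. At P35 the KO points of mt-Nd5 lie at 3.20 to 5.30% below WT at 5.69 to 6.004%, and those of mt-Co2 at 11.3 to 13.2% above WT at 10.1 to 10.6%.

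Levels between genes were compared per length, as CPM of the library total per kilobase of gene, with copies added. In WT at P35 *mt-Co1* was highest at 34078 ± 5995 (SD, *n*=4), followed by *mt-Co2* at 30191 ± 4064, *mt-Co3* at 28369 ± 3633 and *mt-Atp6* at 25021 ± 3231. Each of these neighbours differed by less than the larger SD. *mt-Cytb* (19291 ± 2969), *mt-Nd1* (15821 ± 1925), *mt-Nd4* (13856 ± 2229) and *mt-Nd2* (10991 ± 1649) came next, then *mt-Nd3* (8639 ± 1101), *mt-Nd4l* (6997 ± 1301), *mt-Nd5* (6334 ± 1063) and *mt-Atp8* (5388 ± 785). The rRNAs were lower, *mt-Rnr2* at 2094 ± 101 and *mt-Rnr1* at 1659.7 ± 48.5, and *mt-Nd6* was lowest at 489.7 ± 119.96. In KO at P35 *mt-Co2* (23129 ± 1563) stood above *mt-Co1* (21272 ± 254), and *mt-Nd5* (2827 ± 628) was at about the level of *mt-Atp8* (2943 ± 277). At P1 *mt-Atp8* (2658 ± 221 in WT) had been above *mt-Nd5* (1420.3 ± 153), *mt-Nd4l* (1449 ± 202) and *mt-Nd3* (1895 ± 157). Values of short genes such as *mt-Atp8* and *mt-Nd4l* per length depend on how reads over gene ends were counted. Since the libraries were poly(A)-selected, this order of genes, the low place of the rRNAs and *mt-Nd6* included, applies to polyadenylated RNA and not to total RNA.

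Nuclear genes that act on the mt genome were followed in lists chosen by function. Of 55 genes in 4 lists (mtDNA upkeep, transcription, RNA processing, and RNA stability and decay), 0 were DEGs at P1 and at P14, 1 at P21 (*Mrm3*, an rRNA methyltransferase, lower in KO) and 10 at P35, all lower in KO. Of all genes tested, 1.5% were DEGs lower in KO at P21 and 7.52% at P35, so that 1 of 55 at P21 was near the share of all genes. The median log2 fold change of the 55 at P35 was -0.32, beside 0.04 for all genes tested. At adjusted *P* under 0.05 with no fold threshold, 31 of the 55 were lower in KO at P35, where 20.1% of all genes were, and 3 were higher. With library totals, under which 27.9% of the table rose and 2.09% fell in KO at P35, the 10 lower DEGs gave way to 8 of the 55 that were higher and 0 that were lower. Of 12 genes of mtDNA replication and upkeep none was a DEG at P35 and the median was 0.08. The smallest adjusted *P* there belonged to *Rrm2b*, a ribonucleotide reductase subunit (-0.56 ± 0.08, adjusted *P* = 7.91e-04), *Twnk*, the mtDNA helicase (-0.42 ± 0.07, adjusted *P* = 0.0011), and *Tk2*, the mt thymidine kinase, on the side of higher levels in KO (0.55 ± 0.10, adjusted *P* = 0.0024). None of them reached the fold threshold. Of 11 transcription genes 2 fell at P35, *Polrmt*, the mt RNA polymerase (-0.61 ± 0.08, adjusted *P* = 4.68e-04), and *Mterf2* of the mt termination factor family (-0.66 ± 0.13, adjusted *P* = 0.0032), and *Tfb2m*, an initiation factor, was short of the fold threshold (-0.47 ± 0.06, adjusted *P* = 4.69e-04).

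Of 24 genes of RNA processing and modification 6 fell at P35, where 7.52% of all genes did, with a list median of -0.44 beside 0.04 for all genes. They included *Fastkd1*, an mt RNA-binding protein (-0.91 ± 0.09, adjusted *P* = 1.31e-04), *Ptcd3*, which associates with the mt ribosome (-0.74 ± 0.08, adjusted *P* = 1.55e-04), and *Grsf1* of the mt RNA granules (-0.68 ± 0.07, adjusted *P* = 1.74e-04). Of 8 genes of RNA stability and decay 2 fell, *Lrpprc*, which stabilises mt mRNAs (-0.68 ± 0.09, adjusted *P* = 4.35e-04), and *Supv3l1*, the helicase of the mt degradosome (-0.77 ± 0.11, adjusted *P* = 5.78e-04). *Mtpap*, the mt poly(A) polymerase, was not a DEG (-0.33 ± 0.06, adjusted *P* = 0.0023).

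Of 77 nuclear subunits of complexes I to V, 0 were DEGs at P1 and P14, 1 at P21 (*Sdha*) and 20 at P35, all lower in KO, beside the 1.5% and 7.52% of all genes given above, and 1 of 77 at P21 was again near the share of all genes. Their median log2 fold change at P35 was -0.41, against -1.05 for the mt mRNAs with copies added. The medians by complex were -0.43 for complex I (6 of 36 DEGs), -0.66 for complex II (3 of 4), which has no mt-encoded subunit, -0.41 for complex III (4 of 9), -0.39 for complex IV (3 of 13) and -0.50 for complex V (4 of 15). The lowest value was that of *Uqcrc1*, a core subunit of complex III (-0.99 ± 0.12, adjusted *P* = 2.72e-04). *Ndufs1* and *Ndufs8* of complex I changed by -0.88 and -0.85, *Sdha*, *Sdhb* and *Sdhd* of complex II by -0.81, -0.73 and -0.59, and *Uqcrfs1* and *Uqcrc2* of complex III by -0.84 and -0.74. *Atp5g1*, *Atp5c1* and *Atp5a1* of complex V changed by -0.94, -0.76 and -0.83, and *Cox5a* of complex IV by -0.67, all of them DEGs. *Cox7a2* and *Cox7b* of complex IV were short of the fold threshold at -0.41 and -0.52. With library totals, where the median of all genes was 0.44, 3 of the 77 subunits were DEGs at P35, 2 of them higher and 1 lower in KO, beside 27.9% of all genes higher and 2.09% lower. All 13 mt mRNAs with copies added stayed negative under that scaling.

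**Figure D5:**
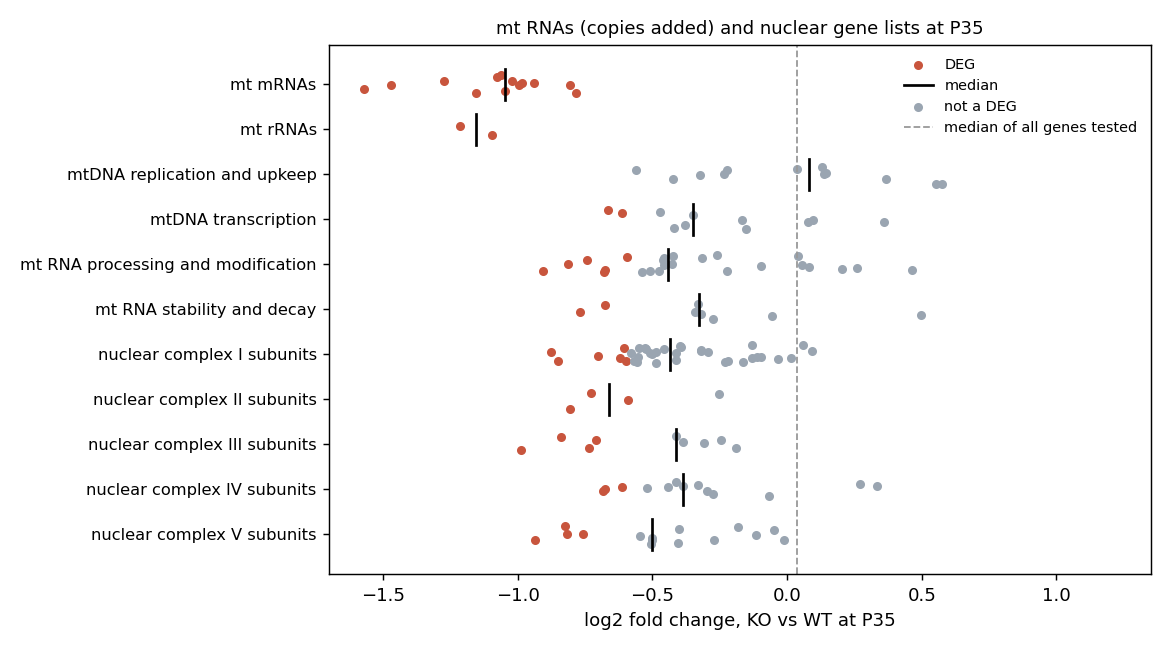
log2 fold change of KO against WT at P35 (x axis) for each gene of the mt mRNAs and rRNAs (copies added) and of 9 nuclear lists (y axis), with DEGs in red, other genes in grey, list medians as black bars and the median of all genes tested as a dashed line. The mt mRNAs lie at -0.78 or lower, and the nuclear lists have medians from -0.66 to 0.08.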

How the data were processed

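TA muscle RNA of 32 libraries was measured by RNAseq. Per the labels, poly(A) RNA was made into directional libraries, and the authors deposited 1 table of expected counts per gene. The submitters' processing notes name STAR 2.6.1, RSEM 1.2.22, DESeq2 and GRCm38, while HTSeq is named in the methods. The annotation release and the strand setting of the counting are not given in the sources used here. Totals ran from 49321035 to 85631408 counts, and 4.26% of values were not whole. Symbols and coordinates came from GENCODE M21 (GRCm38), which named 54723 of 54838 genes. 0 columns were left unused. Nuclear copies were found with blastn 2.17.0.

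Expected counts were rounded and tested with edgeR 4.0.16 in R 4.3.3 (filterByExpr, TMM, quasi-likelihood test, two-sided, Benjamini-Hochberg over all genes tested), 8 libraries per age for KO against WT and all 32 for ages and for differences between ages. Errors of log2 fold changes are the fit's SE. DEGs changed by over 1.5-fold at an adjusted *P* under 0.01 (differences between ages, adjusted *P* alone). The fits were tested on simulated data. Alternatives were library totals, RLE, nuclear library sizes, other filters and thresholds, DESeq2 1.42.0, other sets of libraries, a replicate block and each library left out. The members and gene lists were chosen with earlier results of these data known. Named genes are the 15 mt RNAs with counts, the 3 genes of each nuclear list with the smallest adjusted *P* at P35, and *Mtm1*. One gene under this rule is not reported here. *Mrm3* was named after its value was seen. WT and KO share replicate numbers in the labels, and their deviations correlated in every pair at P14 only (*r* = 0.42, 0.47, 0.30 and 0.73), so the numbers were taken to pair libraries at that age. The best match at P14 was the own number for both libraries of replicates 3 and 4. It was another number for KO replicate 1 and WT replicate 2. As the pairing was read from these data, the *P* values of the block fit are not independent of it. The labels do not state that replicates were separate animals, and *P* values measure the spread between these libraries, which may be technical. Tables were made in python 3.11.15 with pandas 2.3.3, and plots with matplotlib 3.10.9.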

Additional observations from a re-analysis of the deposited data

Results flagged for a closer look

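KO replicate 4 at P1 lay far above the other 3 KO libraries in the share of mt mRNAs (4.83%, next 3.16%) and of mt rRNAs (0.366%, next 0.199%). The same library was apart in CPM with copies added for *mt-Rnr2* (2946 CPM), *mt-Nd1* (4907 CPM), *mt-Nd2* (2562 CPM), *mt-Co1* (17617 CPM), *mt-Co2* (6945 CPM), *mt-Nd4* (3799 CPM) and *mt-Nd5* (3289 CPM). At P35 WT replicate 3 was apart in the share of nuclear copies (6.03%, next 4.31%), and KO replicate 2 in the part of the *mt-Co2* pair placed on the mt gene (91.5%, next 99.95%). Single libraries were also apart from their group in CPM with copies added for *mt-Nd1* in WT at P21 (9552 CPM), *mt-Nd2* in KO at P35 (5934 CPM), *mt-Co3* in KO at P21 (11617 CPM), *mt-Nd3* in KO at P21 (1257 CPM), *mt-Nd5* in WT at P1 (2166 CPM), *mt-Nd5* in KO at P21 (7452 CPM) and *mt-Cytb* in KO at P35 (11875 CPM). In all 18 of 152 groups had such a library by Dixon's criterion, where chance gives about 1 in 20, and the groups are not independent because the transcripts share libraries.

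The KO effect differed between P35 and P14 by the test of the difference for *mt-Nd1* (-0.93), *mt-Nd2* (-1.04), *mt-Co1* (-0.92), *mt-Atp8* (-1.10), *mt-Nd4* (-0.93), *mt-Nd5* (-1.34), *mt-Cytb* (-0.92) and *mt-Nd4l* (-1.18), each value being the log2 effect at P35 minus that at P14.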

How the results depend on the processing

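The TMM results for the 13 mt mRNAs kept their direction where they were called, and 983 of 1020 recomputed gene values kept their call (11 were no longer called, 26 newly called, and 44 uncalled values took the other sign). At P35 the count of 9 DEGs ranged from 8 to 10 when 1 library was left out and was 8 with the replicate block and with library totals. With copies added it was 13 (12 to 13 leaving out 1 library, 11 with the block). At P21 the 3 DEGs became 13 at adjusted *P* under 0.05 with no fold threshold, 6 with DESeq2 or RLE, and 5 with no filter or in 1 fit of 32 libraries. With copies added they were 6 with DESeq2 or RLE and 1 with library totals. Leaving out 1 library gave 2 to 7, or 2 to 6 with copies added (5 without KO replicate 1, and 7 or 6 without WT replicate 4). The change of the KO effect from P14 to P35 was called for 4 mRNAs with library totals or with the 16 libraries of both ages alone (6 with library totals and copies added), and that from P21 to P35 for 1 mRNA at adjusted *P* under 0.05, with the block, or without WT replicate 1 at P35 (0 to 1). Of 18583 genes, 280 had a lower effect at P35 than at P21 at adjusted *P* under 0.05. The cause of the shifts in the number of mRNAs called was not tested.

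For the steps between ages, WT from P14 to P21 gave 10 mRNAs at adjusted *P* under 0.05, 2 with library totals, 3 with the 8 libraries compared alone and 3 with copies added, and 3 to 8 leaving out 1 library (3 without WT replicate 1 or 2 at P14 or 1 or 3 at P21, and 8 without replicate 4 at P14). WT from P21 to P35 gave 10 at adjusted *P* under 0.05, and 3 to 7 leaving out 1 library (3 without WT replicate 1, 3 or 4 at P21 or 2 at P35). At adjusted *P* under 0.05, 2264 of 18583 genes rose in WT from P14 to P21 and 1864 from P21 to P35. In KO from P14 to P21, 2562 rose. KO from P14 to P21 gave 1 at adjusted *P* under 0.05 and 0 to 1 leaving out 1 library (1 without KO replicate 4 at P14), and KO from P21 to P35 gave 1 with copies added and 2 to 4 leaving out 1 library (2 without KO replicate 1 at P21). The 55 nuclear genes acting on the mt genome gave 21 at P21 (20 lower in KO) and 34 at P35 (31 lower) at adjusted *P* under 0.05, where 9.57% and 20.1% of all genes were lower, 0 at P21 with library totals, and 0 to 2 at P21 leaving out 1 library (2 without WT replicate 4, and 0 without any other except KO replicate 2). The 77 nuclear subunits gave 38 (all lower in KO) and 54 (53 lower) at that threshold, with library totals 0 and 3, and 0 to 1 at P21 leaving out 1 library (0 without KO replicate 3). The difference in mt mRNA share (KO minus WT) per 100 nuclear counts was -3.16 at P21 and -7.47 at P35, and -7.16 points at P35 with copies, and that in rRNA per 100 nuclear counts at P35 was -0.286, against -2.42, -5.02 and -0.203 points of all counts. At P1, P21 and P35 replicate numbers were not taken to pair the libraries (correlations of same-numbered libraries -0.33 to 0.29), and the block changed no other count of mt mRNAs by over 1.5 times. With it the rRNAs' change of the KO effect from P21 to P35 had adjusted *P* = 2.45e-04 for *mt-Rnr1* and 0.011 for *mt-Rnr2* in edgeR.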
